A study of Mus musculus with 8 samples.

Results

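The genes described are 41 genes of the contractile machinery, calcium handling and energy supply of skeletal muscle, followed through 8 arrays of whole-skin wound scar biopsies. They were taken by name from the table of expression values, as rows that the platform annotation pairs with a single gene symbol, and where a gene had more than 1 such row the mean of their log2 values was used. Of the 41 genes 37 were measured this way, of 20259 genes in all, and they are called the members. The other 4 (Myh2, Myh4, Myh7 and Xirp2) appear only in rows that the annotation gives to several genes. The study compared early wound scars of 2 mouse strains that differ in wound-induced hair neogenesis, in which follicles form anew within healing skin, with 4 arrays of a low-regeneration strain (low 1 to low 4) and 4 of a high-regeneration strain (high 1 to high 4), and its design text gives 4 mice for each strain. All biopsies came from scars, and no unwounded skin was among the arrays. The strain names, sex, age, genotype, time after wounding and biopsy depth could not be read from the labels. The relation of the muscle values to biopsy depth was therefore not tested.

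Skeletal muscle fibres contract when calcium released from the sarcoplasmic reticulum lets myosin of the thick filaments pull on actin of the thin filaments, and troponin is the calcium switch on the thin filament. Fast and slow fibres use different isoforms of myosin, troponin and calcium-handling proteins. In mouse skin a thin sheet of striated muscle, the panniculus carnosus, lies beneath the dermis and the dermal fat, and it is known for being made mainly of fast fibres. In bulk tissue, fewer cells of a type and less RNA per cell cannot be told apart.

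The arrays had log2 medians between 6.09 and 6.29 over all rows, and their number limits the precision. Between arrays of a group all rows correlated at r of 0.968 to 0.980. Xist, which coats the silenced X, lay at 10.05 and the Y-linked Eif2s3y at 7.57 in low 4, and at 9.60 and 7.67 in low 2. In high 4 Xist was at 6.11 and Eif2s3y at 7.70, and the 5 other arrays had Xist at 12.74 to 12.93 and Eif2s3y at 4.08 to 4.76. Of the pair of arrays that carried the muscle transcripts below, low 4 thus had both signals and low 3 had Xist alone. Signal of both kinds is not what RNA of a single ordinary mouse gives, and whether the arrays low 2 and low 4 each held RNA of 1 animal was not tested.

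Muscle transcripts were high in low 3 and low 4 and low in the other 6 arrays. The mean log2 value of the 37 members was 6.64 in low 1, 6.57 in low 2, 8.72 in low 3 and 9.41 in low 4. In high 1 to high 4 it was 6.61, 6.56, 6.72 and 6.55. In 35 of the 37 members both low 3 and low 4 lay above each of the other 6 arrays, against 11.4% of all genes, and in 31 they did so by at least 1 on the log2 scale, against 0.341% of all genes. The mean of low 3 and low 4 exceeded the mean of the other 6 arrays by a median of 2.56 over the members, within a range of 0.16 to 4.53, and by a median of -0.03 over all genes. These 2 arrays were singled out by their muscle values and form no group of the study, so every contrast between them and the other 6 is a description, with no test.

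**Figure D1:**
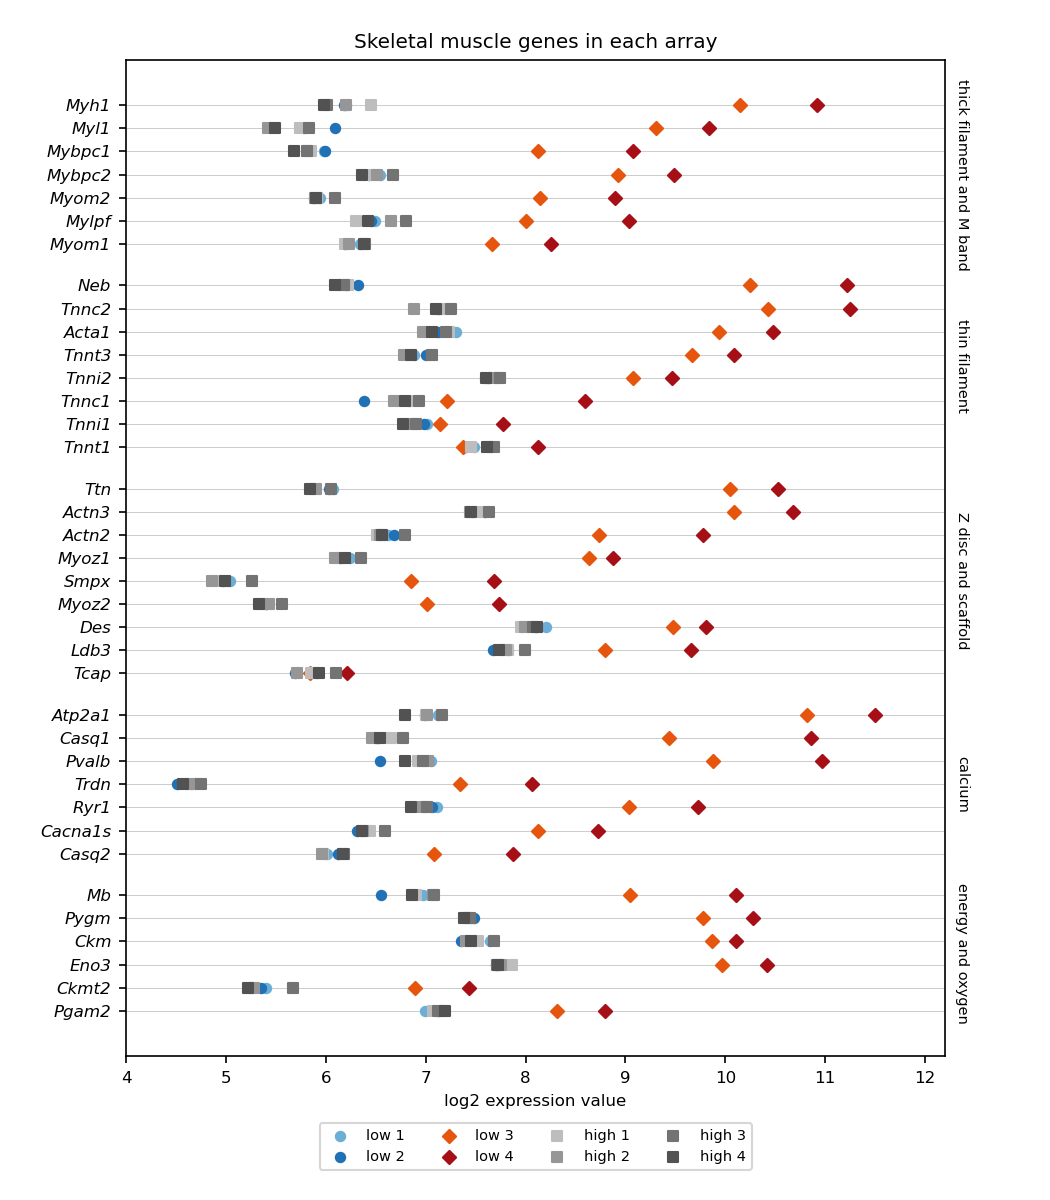
Log2 expression value (horizontal axis) of each of the 37 members (rows, by role) in each array: circles are low 1 and low 2, diamonds low 3 and low 4, squares high 1 to high 4. Low 3 and low 4 stand to the right of the other 6 arrays in 35 members, and in Tnnt1 and Tcap low 4 is the highest array while low 3 is not above the other 6.

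Sequence near the start sites played no part in the choice of the members, and 3 motifs known from muscle promoters were each found in a minority of their windows, at a higher share than in all windows. RefSeq promoter windows of build GRCm38.p6, of 250 bases before to 50 bases after the start, were at hand for 33 of the 41 genes (1 window a gene, the first listed) and for 27025 genes in all. The E-box CAGCTG, a site type of the MyoD family of muscle transcription factors, was found in 16 of the 33 windows (48.5%) and in 16.1% of all windows, both strands read. The MEF2 motif, named for a family of factors active in muscle, was in 8 windows (24.2%) and in 3.3% of all, and the CArG box of serum response factor in 4 windows (12.1%) and in 1.6% of all. The general E-box CANNTG, which includes CAGCTG, was in 27 windows (81.8%) and in 72.1% of all. CAGCTG was in 4 of 8 windows of fast-fibre genes and 3 of 6 of slow-fibre genes, MEF2 in 2 of 8 and 2 of 6, and CArG in 0 of either. A relation of the motifs to the array differences was not tested. A match is a description of letters, not a site shown to be used. The windows printed here, on the strand of the gene and 5′ to 3′, are picked examples. Acta1, Pgam2 and Myoz2 are measured members that each hold more than 1 of the CAGCTG, MEF2 and CArG motifs, and whether further members do is not given. Ttn was among the members with the largest difference and holds a MEF2 motif, and Tnnt1 is a slow-fibre gene with almost no difference. Capitals mark the CAGCTG, MEF2 and CArG motifs, and in the Tnnt1 window none of them was found.
Acta1: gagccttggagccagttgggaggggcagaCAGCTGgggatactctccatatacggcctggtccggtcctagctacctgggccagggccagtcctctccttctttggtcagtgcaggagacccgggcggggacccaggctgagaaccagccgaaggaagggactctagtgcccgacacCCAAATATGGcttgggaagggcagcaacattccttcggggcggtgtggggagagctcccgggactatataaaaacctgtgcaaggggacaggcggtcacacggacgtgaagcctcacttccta
Ttn: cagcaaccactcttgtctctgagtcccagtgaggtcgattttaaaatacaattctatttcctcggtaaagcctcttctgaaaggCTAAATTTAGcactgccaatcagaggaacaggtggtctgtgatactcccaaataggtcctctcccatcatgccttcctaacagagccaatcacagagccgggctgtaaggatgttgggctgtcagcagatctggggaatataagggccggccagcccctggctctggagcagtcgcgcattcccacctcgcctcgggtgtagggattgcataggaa
Pgam2: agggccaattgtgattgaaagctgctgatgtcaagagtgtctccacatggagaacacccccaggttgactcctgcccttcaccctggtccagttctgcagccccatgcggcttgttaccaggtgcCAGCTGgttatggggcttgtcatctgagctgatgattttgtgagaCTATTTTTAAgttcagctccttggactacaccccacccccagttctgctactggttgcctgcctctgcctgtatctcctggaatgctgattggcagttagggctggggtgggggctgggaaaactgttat
Myoz2: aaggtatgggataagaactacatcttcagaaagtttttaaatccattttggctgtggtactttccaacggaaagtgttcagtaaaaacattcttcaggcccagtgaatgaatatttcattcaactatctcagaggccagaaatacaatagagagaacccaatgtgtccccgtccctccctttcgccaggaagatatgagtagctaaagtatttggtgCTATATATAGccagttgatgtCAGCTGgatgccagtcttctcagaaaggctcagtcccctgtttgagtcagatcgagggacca
Tnnt1: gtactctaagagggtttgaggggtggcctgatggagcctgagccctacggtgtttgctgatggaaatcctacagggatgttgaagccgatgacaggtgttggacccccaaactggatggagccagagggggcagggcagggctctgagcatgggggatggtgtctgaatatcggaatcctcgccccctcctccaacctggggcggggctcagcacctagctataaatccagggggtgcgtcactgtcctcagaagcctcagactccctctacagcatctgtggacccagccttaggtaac

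The Acta1 window is chr8:123894726-123895025 on the minus strand, with the E-box at position -221 and the CArG box at position -73, both counted from the start site to the first base of the motif. Ttn lies at chr2:76982498-76982797, also on the minus strand, with its MEF2 motif at -166. Pgam2, at chr11:5803747-5804046 on the minus strand, has the E-box at -125 and the MEF2 motif at -80. Myoz2, at chr3:123034938-123035237 on the minus strand, has them at -12 and -33. The Tnnt1 window is chr7:4515926-4516225 on the minus strand.

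Thick filament and M band genes were high in low 3 and low 4 without exception among the 7 measured. Myh1, the heavy chain of a fast myosin, lay at 6.20, 6.19, 10.15 and 10.91 in low 1 to low 4 and 6.45, 6.20, 6.01 and 5.98 in high 1 to high 4. The mean of low 3 and low 4 was 4.36 above that of the other 6 arrays on the log2 scale, which is 20.5-fold. Myh1 is the average of 4 rows. In 3 of them the difference was 4.45, 6.12 and 6.22, while the brightest row, at 10.38 to 10.56 in the other 6 arrays, differed by 0.65. Myosin heavy chain genes are close paralogs, so which isoform gave the signal is uncertain. Rows shared between myosin genes were left out of the members. The row given to both Myh4 and Myh1 had low 3 at 10.74 and low 4 at 11.73, with 6.34 to 6.62 elsewhere, and the row given to Myh8, Myh2, Myh3 and Myh1 had them at 9.15 and 10.22, with 6.31 to 6.49 elsewhere. By contrast, the row given to Myh7 and Myh6, the slow and cardiac heavy chains, read 6.41 and 6.75 in these arrays, within the 6.55 to 6.86 of the other 6 or below it.

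Myl1, an essential myosin light chain of fast fibres, lay at 5.79, 6.09, 9.31 and 9.84 in low 1 to low 4 and 5.74, 5.42, 5.83 and 5.49 in high 1 to high 4. Its difference between low 3 and low 4 and the other 6 arrays was 3.85 (14.4-fold). Mylpf, the regulatory light chain of fast myosin, was at 7.9999 and 9.04 in low 3 and low 4 against 6.30 to 6.81 elsewhere. In both light chains the pair of arrays stood clear of the rest. Mybpc2, the fast isoform of myosin-binding protein C, was at 6.54, 6.44, 8.92 and 9.49 in low 1 to low 4 and 6.47, 6.51, 6.67 and 6.36 in high 1 to high 4. The slow isoform Mybpc1, which fast fibres are also known to make, was at 5.98, 5.99, 8.12 and 9.08 in low 1 to low 4 and 5.86, 5.81, 5.81 and 5.68 in high 1 to high 4. Both differed by about the same amount, 2.71 for Mybpc2 and 2.74 for Mybpc1. The M band proteins Myom1 and Myom2, which tie thick filaments together, differed by 1.67 and 2.58.

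Among 8 thin filament genes the differences of the fast troponins, Neb and Acta1 were 1.61 to 4.53, and those of the slow troponins 0.20 to 1.15. Neb encodes nebulin, the giant protein along the actin filament, and had the largest difference of all members at 4.53 (23.2-fold). It lay at 6.21, 6.32, 10.25 and 11.22 in low 1 to low 4 and 6.22, 6.18, 6.18 and 6.09 in high 1 to high 4. The actin of adult skeletal muscle, Acta1, was at 7.31, 7.12, 9.93 and 10.48 in low 1 to low 4 and 7.23, 6.97, 7.20 and 7.07 in high 1 to high 4, a difference of 3.06. In both genes low 3 and low 4 stood far above all 6 other arrays, which lay close together.

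The 3 subunits of troponin each have a fast and a slow gene. For troponin C, which binds calcium, the fast Tnnc2 was at 7.16, 7.13, 10.43 and 11.25 in low 1 to low 4 and 7.21, 6.88, 7.26 and 7.11 in high 1 to high 4. Its slow and cardiac counterpart Tnnc1 was at 6.83, 6.39, 7.22 and 8.59 in low 1 to low 4 and 6.89, 6.68, 6.93 and 6.79 in high 1 to high 4. Low 3 and low 4 were far above the rest in Tnnc2, while in Tnnc1 low 3 was 0.29 above the highest of the other 6 and low 4 stood higher. For troponin T, which binds tropomyosin, the fast Tnnt3 was at 6.88, 7.01, 9.66 and 10.09 in low 1 to low 4 and 7.06, 6.79, 7.07 and 6.86 in high 1 to high 4. The slow Tnnt1 was at 7.49, 7.40, 7.38 and 8.13 in low 1 to low 4 and 7.45, 7.64, 7.68 and 7.62 in high 1 to high 4. In Tnnt1 low 3 was the lowest of the 8 arrays and low 4 the highest. It is the average of 2 rows that differ in sign, at 0.60 and -0.19 for low 3 and low 4 against the other 6. For troponin I, the inhibitory subunit, the fast Tnni2 was at 7.59, 7.62, 9.08 and 9.46 in low 1 to low 4 and 7.75, 7.69, 7.75 and 7.61 in high 1 to high 4. The slow Tnni1 was at 7.01, 6.99, 7.14 and 7.78 in low 1 to low 4 and 6.88, 6.87, 6.91 and 6.77 in high 1 to high 4, with low 3 just above the other 6 arrays and low 4 higher still. Both arrays were thus well above the rest in all 3 fast troponins, while in the slow ones low 4 was above the rest and low 3 was just above it (Tnnc1, Tnni1) or below it (Tnnt1).

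Across the 6 pairs of fast and slow isoforms that were both measured, the difference between low 3 and low 4 and the other 6 arrays was larger for the fast gene in 5. The fast gene exceeded the slow one by 2.73 for troponin T, 2.56 for troponin C, 2.16 for calsequestrin, 1.05 for troponin I and 0.60 for myozenin. For myosin-binding protein C the fast minus slow value was -0.04. Over the 12 fast-fibre members the median difference was 3.23, and over the 6 slow-fibre members 1.28. A difference on this scale depends on the background of each probe set, so it compares arrays within a gene, and its size between genes is only a rough guide. Outside the members, the slow and cardiac light chains Myl2 and Myl3 differed by -0.25 and -0.15, with low 3 the lowest of the 8 arrays for Myl2.

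**Figure D2:**
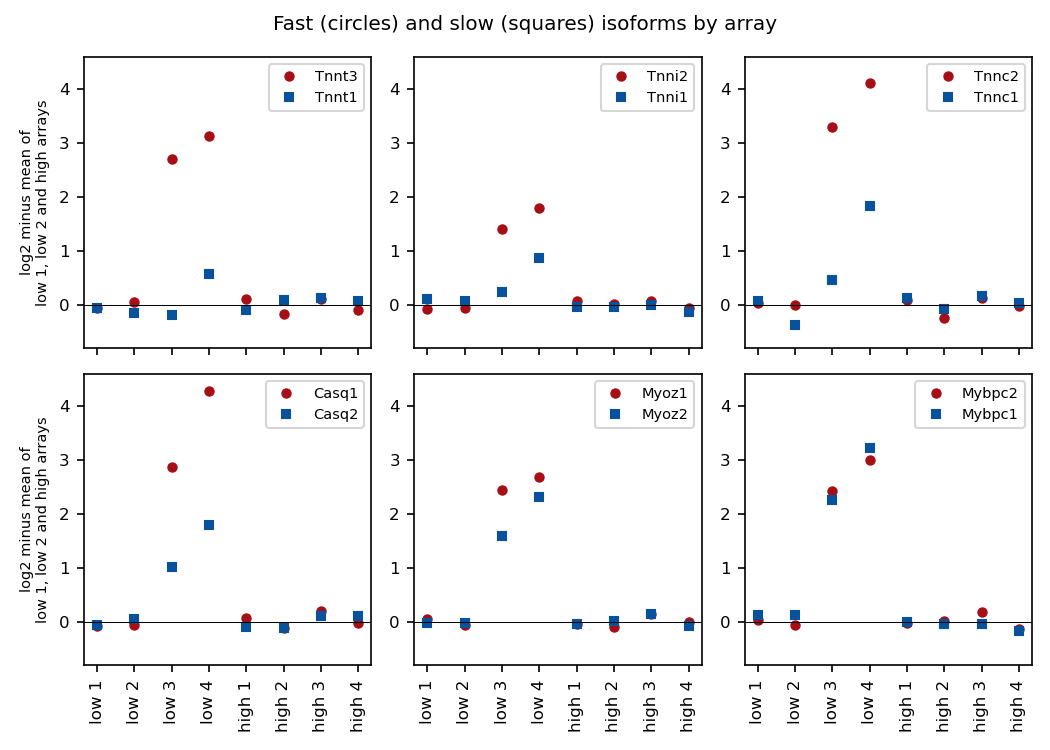
Log2 value of each array minus the mean of low 1, low 2 and the 4 high arrays (vertical axis), by array (horizontal axis), for 6 pairs of isoforms: circles fast, squares slow. Low 3 and low 4 stand above 0 in all fast genes, and the slow squares lie lower than the circles in all pairs but Mybpc2 and Mybpc1 in low 4.

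Z disc and scaffold genes showed the same arrays on top in 8 of 9. Ttn encodes titin, the molecular spring that spans the sarcomere from Z disc to M band, and lay at 6.07, 6.03, 10.04 and 10.52 in low 1 to low 4 and 5.90, 5.91, 6.05 and 5.84 in high 1 to high 4. Its difference was 4.32 (19.9-fold). Low 3 and low 4 were the 2 highest arrays by a wide margin. Actn3, the Z disc alpha-actinin of fast fibres, was at 7.46, 7.59, 10.09 and 10.67 in low 1 to low 4 and 7.55, 7.45, 7.63 and 7.45 in high 1 to high 4. Actn2, the alpha-actinin of all fibre types, was at 6.63, 6.68, 8.73 and 9.78 in low 1 to low 4 and 6.51, 6.54, 6.79 and 6.56 in high 1 to high 4, and the differences of the pair were close, at 2.86 and 2.63. Myozenins bind calcineurin at the Z disc. The fast Myoz1 was at 6.25, 6.14, 8.64 and 8.88 in low 1 to low 4 and 6.15, 6.10, 6.35 and 6.20 in high 1 to high 4, and the slow Myoz2 was at 5.40, 5.40, 7.01 and 7.74 in low 1 to low 4 and 5.37, 5.43, 5.56 and 5.33 in high 1 to high 4. In both, low 3 and low 4 cleared the other arrays by more than 1.

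Des, Ldb3 and Smpx also had low 3 and low 4 above the other arrays. Des, the muscle intermediate filament, which smooth muscle also makes, was at 9.47 and 9.81 against 7.96 to 8.20 elsewhere. Ldb3, a Z disc scaffold protein, was at 8.79 and 9.66 against 7.68 to 7.99. Smpx, a small muscle protein, was at 6.86 and 7.68 against 4.86 to 5.26. Tcap, which caps titin at the Z disc, was the member that did not separate: it lay at 5.92, 5.69, 5.85 and 6.22 in low 1 to low 4 and 5.85, 5.71, 6.10 and 5.93 in high 1 to high 4. Low 4 was highest in Tcap, and low 3 was within the other arrays. The row that the annotation gives to Xirp2 and a predicted gene had low 3 at 7.60 and low 4 at 7.68, and 5.50 to 5.97 elsewhere.

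All 7 genes of calcium release, uptake and buffering were higher in low 3 and low 4 than in any other array. Atp2a1, the calcium pump of fast fibres, lay at 7.12, 6.997, 10.82 and 11.49 in low 1 to low 4 and 7.002, 7.01, 7.16 and 6.80 in high 1 to high 4, a difference of 4.14 (17.7-fold). Pvalb, the calcium buffer parvalbumin of fast fibres, was at 7.05, 6.54, 9.88 and 10.97 in low 1 to low 4 and 6.92, 7.02, 6.98 and 6.79 in high 1 to high 4. Calsequestrin stores calcium in the sarcoplasmic reticulum. Its fast form Casq1 was at 6.50, 6.52, 9.44 and 10.85 in low 1 to low 4 and 6.65, 6.46, 6.78 and 6.55 in high 1 to high 4, and its cardiac and slow form Casq2 was at 6.02, 6.13, 7.09 and 7.87 in low 1 to low 4 and 5.97, 5.96, 6.19 and 6.17 in high 1 to high 4. Casq1 had the largest step from low 3 to low 4 of all members, at 1.41 (2.67-fold). Ryr1, the calcium release channel, differed by 2.38, its voltage sensor Cacna1s by 2.02, and Trdn, which anchors calsequestrin to the channel, by 3.07.

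The 6 genes of energy and oxygen supply had differences in a narrow band, from 1.44 to 2.66. Mb, the oxygen store myoglobin, lay at 6.97, 6.55, 9.05 and 10.10 in low 1 to low 4 and 6.90, 7.08, 7.09 and 6.86 in high 1 to high 4. Pygm, the muscle glycogen phosphorylase, was at 7.46, 7.49, 9.78 and 10.27 in low 1 to low 4 and 7.43, 7.42, 7.44 and 7.39 in high 1 to high 4. Ckm, the muscle creatine kinase, was at 7.64, 7.35, 9.87 and 10.11 in low 1 to low 4 and 7.53, 7.41, 7.68 and 7.46 in high 1 to high 4. In all 3, low 3 and low 4 stood above the other 6 arrays. Mb was higher in low 4 than in low 3 by 1.06 and Ckm by 0.24. The glycolytic enzymes Eno3 and Pgam2 differed by 2.45 and 1.44 between these arrays and the others, and Ckmt2, the mitochondrial creatine kinase, by 1.80.

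Low 4 exceeded low 3 in all 37 members, by a median of 0.67 and a range of 0.24 to 1.41, against a median of 0.03 over all genes. Of all 20259 genes, 11361 had low 4 above low 3. Among the members the smallest steps were in Ckm (0.24) and Myoz1 (0.24), and the largest in Casq1 (1.41) and Tnnc1 (1.38). The median step was 0.77 over the 6 slow-fibre members and 0.63 over the 12 fast-fibre members. Each value is a contrast of single arrays and has no replicate check.

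**Figure D3:**
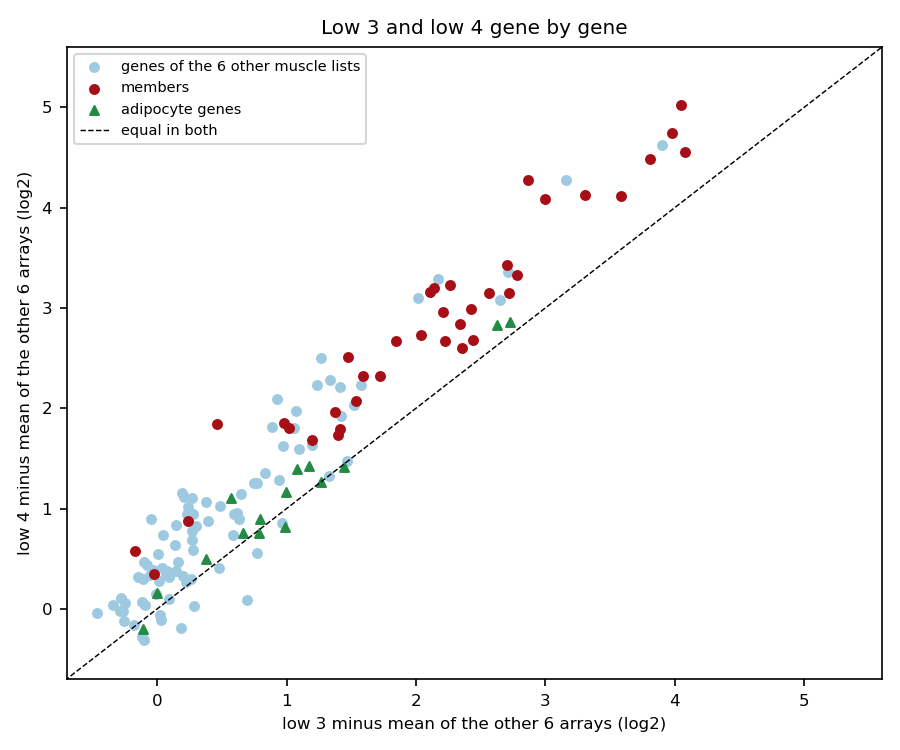
Low 3 (horizontal axis) and low 4 (vertical axis), each minus the mean of the other 6 arrays on the log2 scale, for the 37 members, 89 genes of the 6 other muscle lists and 15 adipocyte genes. The dashed line marks equal values: all 37 members lie above it, and so do 10 of 15 adipocyte genes. Of all 20259 genes, which are not drawn, 11361 had low 4 above low 3.

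The comparison of the study itself, high against low regeneration, called none of the members. With limma over 20259 genes, 0 of 37 members passed an adjusted p of 0.05 (Benjamini-Hochberg over all genes), against 4.32% of all genes (2.47% lower and 1.86% higher in high regeneration), and 7 members had an unadjusted p under 0.05, all of them lower in high regeneration, against 10.1% of all genes in that direction. This last count rested on single arrays: it was 32 without low 1, 34 without low 2, 2 without low 4, and 0 without low 3 or without any single high array. Estimates were lower in high regeneration in 36 of 37 members, with a median of -1.27, against a median of 0.03 over all genes. The adjusted p ran from 0.19 to 0.997. In the members with the largest estimates the low arrays varied far more than the high arrays. Neb averaged 8.50 ± 2.61 across the low arrays (SD, n = 4) and 6.17 ± 0.06 across the high arrays, a difference of -2.33 ± 1.05 (SE) at a limma adjusted p of 0.236. The titin gene Ttn averaged 8.17 ± 2.45 across the low arrays (SD, n = 4) and 5.92 ± 0.09 across the high arrays, a difference of -2.24 ± 0.99 (SE) at a limma adjusted p of 0.228. Myl1, which had the smallest adjusted p of the members, averaged 7.76 ± 2.11 across the low arrays (SD, n = 4) and 5.62 ± 0.19 across the high arrays, a difference of -2.14 ± 0.86 (SE) at a limma adjusted p of 0.19. At the other end of the range, Tnnt1 averaged 7.60 ± 0.36 across the low arrays (SD, n = 4) and 7.60 ± 0.10 across the high arrays, a difference of 0.00 ± 0.16 (SE) at a limma adjusted p of 0.997.

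The groups of 4 did not overlap in 4 of the 37 members, Mybpc1, Pygm, Ryr1 and Tnni1, all lower in high regeneration, against 7.29% of all genes not overlapping in that direction. Tnni1 averaged 7.23 ± 0.37 across the low arrays (SD, n = 4) and 6.86 ± 0.06 across the high arrays, a difference of -0.37 ± 0.16 (SE) at a limma adjusted p of 0.215. In low 1 and low 2 it lay at 7.01 and 6.99, against a highest high array of 6.91. Ryr1 in low 1 and low 2 lay at 7.11 and 7.06, against a highest high array of 7.01. Pygm in these arrays lay at 7.46 and 7.49, against 7.44, and Mybpc1 at 5.98 and 5.99, against 5.86. In all 4 genes low 3 and low 4 were the highest arrays.

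Without low 3 and low 4, which leaves 2 low and 4 high arrays, the median difference of the members between high and low regeneration was 0.0155 in place of -1.27. Estimates were lower in high regeneration in 16 of 37 members, and again 0 were called, with 1 member at an unadjusted p under 0.05. Neb then differed by -0.10, Ttn by -0.13 and Atp2a1 by -0.07. The largest remaining differences were those of Myl1 (-0.32, adjusted p = 0.339), Mb (0.22, adjusted p = 0.465) and Tnnc1 (0.22, adjusted p = 0.486), from the same limma comparison. The smallest adjusted p was that of Mybpc1 (-0.19, adjusted p = 0.27). With low 3 alone or low 4 alone left out, 0 members were called, and the median was -0.892 and -0.745.

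**Figure D4:**
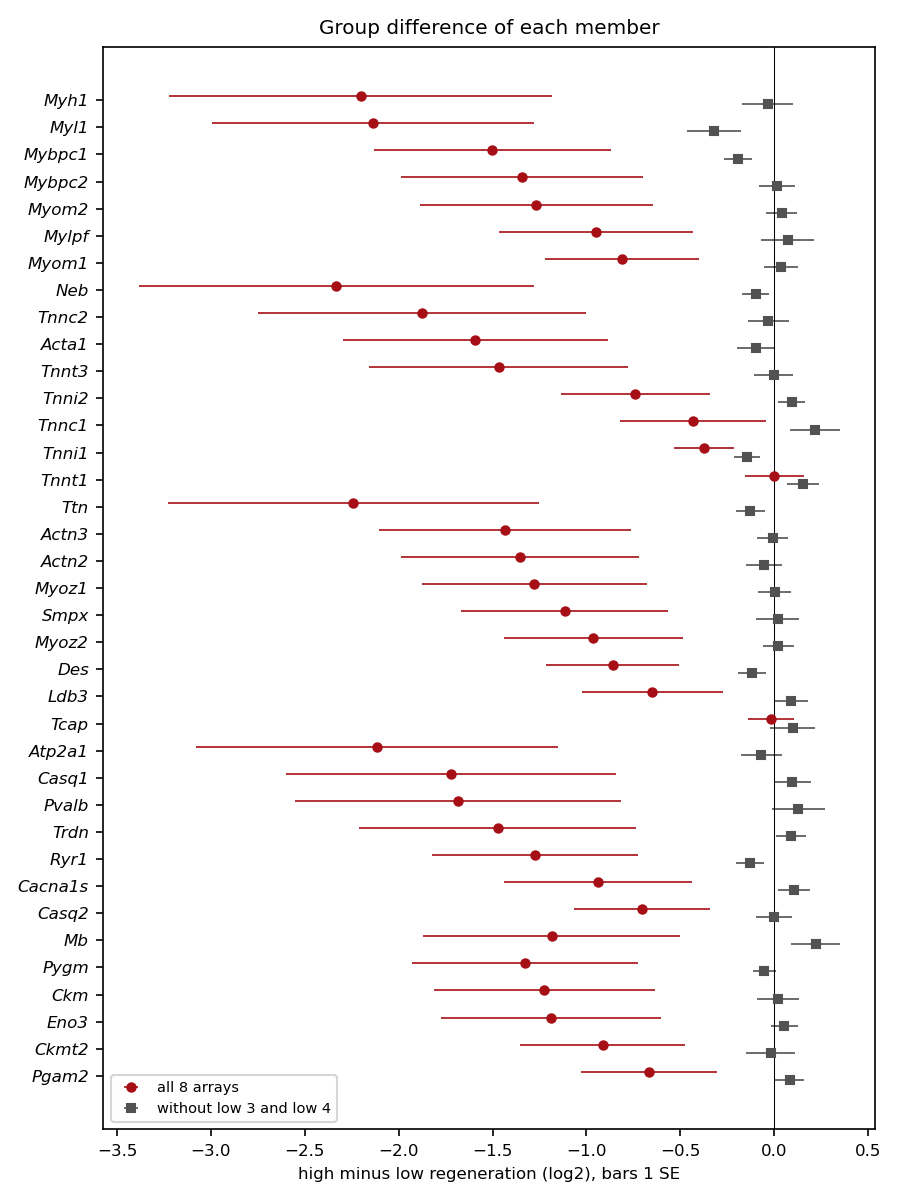
Difference between high and low regeneration on the log2 scale (horizontal axis, bars 1 SE) for each member: circles from all 8 arrays, squares without low 3 and low 4. With 8 arrays 36 of 37 circles lie below 0 with wide bars, and without the pair all squares lie between -0.32 and 0.22.

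Other genes of skeletal muscle, in 6 lists that do not hold members, showed the same arrays to a lesser extent. Of 89 measured genes 50 had low 3 and low 4 above the other 6 arrays and 3 had them below, and the median difference was 0.52. The sarcomere list came closest to the members, with 20 of 28 above and a median of 1.01. Myot, the Z disc protein myotilin, was at 6.07, 5.99, 10.004 and 10.73 in low 1 to low 4 and 6.32, 6.13, 6.28 and 5.83 in high 1 to high 4. Klhl41, a protein of the sarcomere, was at 6.31, 6.29, 9.56 and 10.67 in low 1 to low 4 and 6.45, 6.18, 6.59 and 6.56 in high 1 to high 4. The differences were 4.26 and 3.72, beside 2.73 for the Z disc protein Pdlim3 and 1.81 for Mypn, the Z disc protein myopalladin.

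The metabolic list had 12 of 14 above and a median of 0.67. Cox8b, a muscle form of a cytochrome c oxidase subunit, was at 9.50 and 10.15 against 6.68 to 6.89. Ampd1, the AMP deaminase of muscle, was at 7.45 and 8.10 against 5.75 to 5.97. Pdk4, which shifts fuel use from glucose to fat, was at 9.24 and 9.24 against 7.68 to 8.19. The list of excitation and membrane genes had 7 of 17 above, 3 below and a median of 0.27, led by Sln (1.43), a regulator of the calcium pump, and Hrc (1.35), a calcium-binding protein of the sarcoplasmic reticulum.

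Regulators of the muscle lineage and satellite cell markers separated the arrays in 4 of 16, with a median of 0.20. Mstn, the growth inhibitor myostatin that fibres secrete, was at 5.35, 5.39, 8.18 and 8.61 in low 1 to low 4 and 5.48, 5.51, 5.72 and 5.74 in high 1 to high 4. Myf6, the member of the MyoD family that mature fibres keep, was at 6.16, 5.99, 7.53 and 8.48 in low 1 to low 4 and 6.28, 6.27, 6.19 and 6.26 in high 1 to high 4. Myog, which drives the fusion and differentiation of myoblasts, was at 7.38 and 8.35 in the pair and at 6.9995 to 7.39 elsewhere. Myod1, its upstream relative, was at 7.06 and 7.998, with 6.80 to 7.26 elsewhere. Both thus stood out in low 4 and not in low 3. Pax7, the satellite cell marker, was at 6.99 and 7.45 against 6.94 to 7.34, and Myf5 was within the other arrays at 6.80 and 6.71.

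Genes of developing, regenerating or denervated fibres had 5 of 7 above, a median of 0.66 and the widest step from low 3 to low 4 of the muscle lists, with a median of 0.91. Actc1, the cardiac actin that immature fibres also make, was at 6.92, 7.01, 8.88 and 9.96 in low 1 to low 4 and 6.81, 6.72, 7.02 and 6.74 in high 1 to high 4. Chrna1, a subunit of the muscle acetylcholine receptor, was at 6.87, 6.84, 8.06 and 9.30 in low 1 to low 4 and 6.86, 6.85, 6.70 and 6.68 in high 1 to high 4. Mymk, the fusion protein myomaker, was at 6.72, 6.73, 7.62 and 8.79 in low 1 to low 4 and 6.69, 6.73, 6.78 and 6.53 in high 1 to high 4. In all 3 both arrays were above the rest and low 4 was the highest. Chrng, the receptor subunit of fetal muscle, was at 6.86 and 7.43 against 6.85 to 7.11. The neuromuscular junction list had 2 of 7 above and a median of 0.10, with Musk, the receptor kinase of the junction, at 6.20 and 7.04 against 5.77 to 6.11.

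In the comparison of high with low regeneration, 1 of the 89 genes of these lists passed, against 4.32% of all genes. Tpm1, a tropomyosin that many cell types make, averaged 9.79 ± 0.06 across the low arrays (SD, n = 4) and 9.37 ± 0.17 across the high arrays, a difference of -0.42 ± 0.09 (SE) at a limma adjusted p of 0.0372. This call was lost when low 2, low 3, low 4, high 1, high 2 or high 3 was left out alone, and among 19 alternatives the limma adjusted p lay between 0.021 and 0.251. Low 3 and low 4 were no higher than low 2 in this gene, at 9.77 and 9.81 against 9.86. Without low 3 and low 4 the 1 gene called was Tmod4, a tropomodulin of skeletal muscle, which was then higher in high regeneration by 0.60 (limma adjusted p = 0.0184). In that setting 127 of all 20259 genes were called higher and 198 lower. Tmod4 lay at 6.90, 6.88, 8.39 and 8.88 in low 1 to low 4 and 7.52, 7.57, 7.35 and 7.52 in high 1 to high 4.

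Over all genes 11.4% had low 3 and low 4 above the other 6 arrays and 11.6% had them below. Among the heart, smooth muscle, endothelial, epidermal, fibroblast and leukocyte lists, the endothelial one departed furthest from these shares. Of 7 heart genes 0 had low 3 and low 4 above the other arrays, with a median of -0.13, and the list mean was 6.56 in low 3 and 6.75 in low 4, while other arrays had 6.65 to 6.96. Of 10 smooth muscle genes 2 were above and 1 below, with a median of -0.04 and list means of 8.21 and 8.09 against 7.97 to 8.31. Acta2, the smooth muscle actin, was at 9.71 and 9.39 against 9.24 to 9.86. Endothelial genes had 0 of 10 above and 6 below, at a median of -0.27. Their list mean was 7.77 in low 3, 7.83 in low 4, 7.92 in low 1 and 7.95 in low 2, and 7.92 to 8.19 in the high arrays. The median estimate of high minus low was 0.23 in this list and 0.03 over all genes, so the contrast can also hold a difference between the groups. Epidermal genes had 1 of 9 above and 2 below, at a median of -0.12. In the comparison of the groups 1 endothelial gene was called higher and 1 epidermal gene lower in high regeneration, against 1.86% and 2.47% of all genes. Fibroblast and leukocyte genes had 0 of 6 above each.

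Adipocyte genes were also high in low 3 and low 4, with 13 of 15 above the other 6 arrays and a median difference of 0.91. Their list mean reached 8.17 in low 3 and 8.28 in low 4. It was 7.20 and 7.44 in low 1 and low 2, and 6.98 to 7.09 in the high arrays. The groups of 4 did not overlap in 7 of these 15 genes, all lower in high regeneration, against 7.29% of all genes in that direction. The contrast of the pair with the other 6 arrays thus also holds a difference between the groups in this list. Adipoq, the fat cell hormone adiponectin, was at 6.33, 6.84, 8.81 and 8.95 in low 1 to low 4 and 5.94, 6.09, 5.82 and 5.50 in high 1 to high 4. Car3, a carbonic anhydrase abundant in fat cells and also known in slow muscle, was at 6.65, 7.36, 9.07 and 9.28 in low 1 to low 4 and 6.64, 6.13, 6.03 and 5.87 in high 1 to high 4. The step from low 3 to low 4 had a median of 0.11 in this list against 0.67 in the members. Low 4 was above low 3 in 10 of 15 adipocyte genes and 37 of 37 members, against 11361 of all 20259 genes. Of the 15 adipocyte genes 1 was called lower in high regeneration, against 2.47% of all genes. This was Gpd1, an enzyme that makes the glycerol backbone of fat. It averaged 8.59 ± 0.50 across the low arrays (SD, n = 4) and 7.54 ± 0.10 across the high arrays, a difference of -1.05 ± 0.21 (SE) at a limma adjusted p of 0.0301. Among the alternatives its limma adjusted p lay between 0.0135 and 0.262. It no longer passed the threshold with a replicate block (0.0615) or without low 2, low 3 or any single high array. The same held without low 2, low 4 and high 4 together (0.262). Without low 3 and low 4 together Gpd1 was still called, at -0.64 (limma adjusted p = 0.0388). Schwann cell genes had 4 of 8 above, with a median of 0.19, and 3 of the 8 were called lower in high regeneration, against 2.47% of all genes. The part that fat or any other tissue played in the muscle values was not tested.

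The hair shaft and inner root sheath list had a median difference of 1.03 with 0 of 12 genes above all 6 other arrays. Its list mean was 10.36 in low 1, 10.91 in low 2, 9.97 in low 3 and 10.46 in low 4, while the high arrays had 8.05 to 9.09. Of these 12 genes 11 were called lower in high regeneration, against 2.47% of all genes. In this list low 3 had the lowest mean of the low arrays and low 4 lay between low 1 and low 2. Low 4 was above low 3 in 12 of 12 of these genes, by a median of 0.5, so this order was not particular to the members. It held in 6 of 7 heart genes, but in 3 of 10 smooth muscle and 3 of 9 epidermal genes, against 11361 of all 20259 genes.

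**Figure D5:**
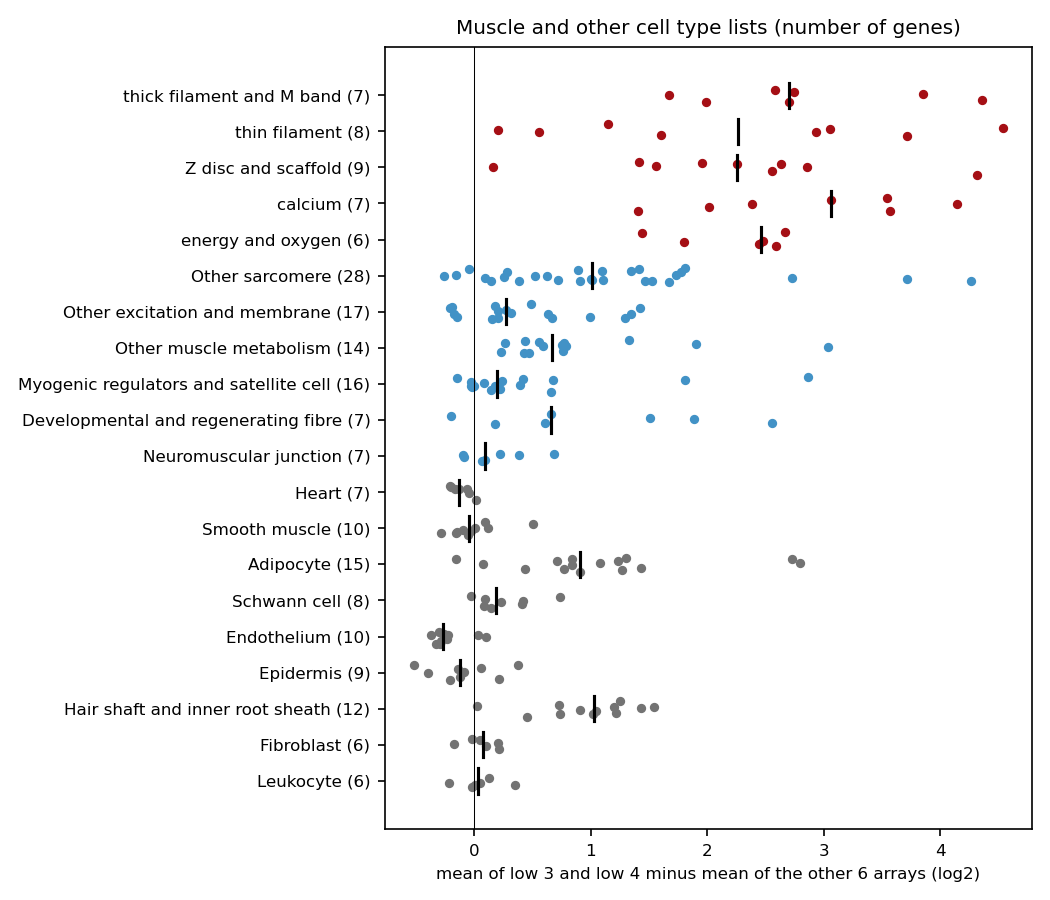
Mean of low 3 and low 4 minus the mean of the other 6 arrays on the log2 scale (horizontal axis) for each gene (points) of each list (rows, number of measured genes in brackets), with black bars at the medians. The 5 role groups of members have medians of 2.26 to 3.07, the 6 other muscle lists 0.10 to 1.01, and adipocyte genes 0.91.

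Over the whole table, 69 genes had low 3 and low 4 above the other 6 arrays by at least 1. Of these 31 were members, 15 belonged to the other muscle lists, 3 to the adipocyte list and 20 to no list. Among the 20 genes with the largest difference 12 were members and 4 were genes of the other muscle lists. The 12 genes outside all lists with the widest gap were Ppp1r3a, Klhl31, Myh13, Cyp2e1, Reg1, Hjv, Abra, Asb12, Asb5, Tmem182, Hp and Cd163. Ppp1r3a, which targets a phosphatase to glycogen in muscle, had low 3 at 7.93 and low 4 at 8.69, with 4.44 to 4.73 elsewhere. Klhl31, a muscle relative of Klhl41, had low 3 at 8.90 and low 4 at 9.79, with 5.90 to 6.17 elsewhere. Both stood out as far as many members. Hjv encodes hemojuvelin, which liver and skeletal muscle make to regulate iron, and had low 3 at 8.73 and low 4 at 9.67, with 6.82 to 7.17 elsewhere. Abra, an actin-binding regulator of striated muscle, had low 3 at 8.74 and low 4 at 8.58, with 6.10 to 7.06 elsewhere. Myh13, a myosin of eye muscles and a close paralog of Myh1, had low 3 at 8.17 and low 4 at 8.79, with 5.70 to 6.39 elsewhere.

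The remaining genes with a wide gap included some known from other tissues. Cyp2e1, a cytochrome P450 of liver and fat, had low 3 at 8.12 and low 4 at 7.27, with 5.37 to 5.64 elsewhere. Hp encodes the plasma protein haptoglobin, which liver and fat make, and had low 3 at 8.997 and low 4 at 9.22, with 7.04 to 7.88 elsewhere. Cd163, the haemoglobin scavenger receptor of tissue macrophages, had low 3 at 8.41 and low 4 at 8.14, with 6.33 to 7.04 elsewhere. Unlike the members, Cyp2e1, Cd163 and Abra were higher in low 3 than in low 4.

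By comparison, 6 genes (0.0296% of all genes) had low 3 and low 4 below the other 6 arrays by at least 1, and 0 of them were members. Outside the lists and leaving predicted gene models aside, the widest gap was that of a transcript whose symbol is an accession, which had low 3 at 7.50 and low 4 at 7.60, with 9.50 to 9.67 elsewhere. Next came the keratin-associated proteins Krtap19-1, Krtap19-2 and Krtap19-5, which form the matrix of the hair shaft, and Ptprz1, a receptor tyrosine phosphatase. Krtap6-3, of the same family, followed with a gap just under 1. Krtap19-2 had low 3 at 7.22 and low 4 at 7.999, with 9.56 to 13.16 elsewhere, and its highest values were in low 1 and low 2 at 12.13 and 13.16. Ptprz1 had low 3 at 7.37 and low 4 at 7.35, with 8.42 to 8.64 elsewhere. In these genes the same pair of low arrays that was high in muscle transcripts was low.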

How the data were processed

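Whole-skin scar biopsies were stored in RNAlater, and total RNA was amplified once from random primers for biotin labelling on Affymetrix Exon arrays, per the labels' protocols and the series' design text. The values the authors deposited are log2 expression values per transcript cluster. Affymetrix Expression Console and PLIER are named in the submitters' processing notes, and neither versions nor the background correction or normalization is given in the sources used here. The table holds 115830 rows with values from 2.10 to 14.92. That they are log2 was read from this range. No detection calls were used, so low values can hold background. The number of arrays limits the precision.

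The platform annotation pairs 25539 rows with 1 symbol, 2300 with several (left out) and 87991 with none listed. A gene with several rows took the mean of their log2 values, giving 20259 genes. Groups were taken from the sample titles and compared as high minus low with limma 3.58.1 in R 4.3.3 (lmFit and eBayes, two-sided), with Benjamini-Hochberg adjustment over all genes and a threshold of 0.05. The fit was tested on simulated data. Shared replicate numbers were not taken as pairs in the main fit. Alternatives covered normalization, variance model, array weights, low values, rows per gene, a replicate block and left-out arrays. The members, lists, rules and alternatives were chosen with earlier results of these data known. Genes were named by role, fast and slow pairs, exceptions, and the 4 largest differences of a list. Not every gene so taken is described. Outside the lists the rule took 12 genes above and 6 below, and 1 of the latter, a transcript whose symbol is an accession, is given by its values only. Promoter sequences and motif matches came from RefSeq windows, matched by symbol.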

Additional observations from a re-analysis of the deposited data

Results flagged for a closer look

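In 116 checks of groups of 4 arrays, over the 37 members and the gene lists, 5 had an array whose distance to its nearest neighbour, as a share of the range of its group, exceeded Dixon's critical value. Chance gives about 1 in 20. High 3 stood above the other high arrays in Myom2 at 6.09 (5.89 to 5.91 in the others), in Ckmt2 at 5.67 (5.22 to 5.28) and in the mean of the developing and regenerating fibre list at 7.21 (7.06 to 7.08). Low 4 stood above the other low arrays in Tnnt1 at 8.13 (7.38 to 7.49) and in the mean of the neuromuscular junction list at 7.45 (7.04 to 7.07).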

How the results depend on the processing

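No member was called in any of the 19 alternatives. The median difference of the members between high and low regeneration, -1.27 with 8 arrays, ran from -1.71 to -0.745 when single arrays were left out and was 0.0155 without low 3 and low 4. The count of 35 members with low 3 and low 4 above the other 6 arrays stayed at 35 under other scalings and row choices. Among genes above the 25th percentile of level, where 32 members were tested, it was 31. That level was the mean over all 8 arrays, so members could pass the filter through their values in low 3 and low 4. The count of 31 is therefore no separate check. The 7 members at an unadjusted p under 0.05 became 21 with the replicate block, 0 with array weights and 1 with a trended, robust variance, and 0 to 34 when single arrays were left out. With the block, Gpd1 had an adjusted p of 0.0615.

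Of 473 values of the 25 named members under the alternatives, 450 kept their direction and 23 changed sign, with 0 of these called. Without low 3 and low 4 the sign changed in Casq1 (0.0968), Casq2 (0.000557), Ckm (0.0215), Mb (0.221), Mybpc2 (0.0155), Myoz1 (0.00339), Myoz2 (0.0227), Pvalb (0.13), Tcap (0.098), Tnnc1 (0.217) and Tnni2 (0.0926). Tcap, at -0.02 with 8 arrays, was at 0.000734 after median centring, 0.0127 with array weights, 0.00806 without low 2, low 4 and high 4, and between -0.0933 and 0.0832 when single arrays were left out, with 0.0832 and 0.0454 without low 4 or high 2. Tnnc1 ran from -0.722 to 0.0139 with single arrays left out, the latter without low 4. Tnnt1, at 0.0013 with 8 arrays, ran from -0.0731 to 0.177 with single arrays left out and was below 0 without low 1, low 2, low 3, high 2, high 3 or high 4.

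Over all genes 376 were higher and 500 lower in high regeneration. With the replicate block they were 105 and 134, without low 3 and low 4 together 127 and 198, and without low 2, low 4 and high 4 together 5 and 10, with fewer arrays in the last pair of settings. Leaving out single arrays gave 129 to 536 higher and 163 to 669 lower genes. In the other muscle lists the 1 gene lower in high regeneration became 0 with the replicate block, without low 3 and low 4, and without low 2, low 4 and high 4, and 0 to 1 when single arrays were left out. It became 2 (Tpm1 and Pax3) after quantile normalization and cyclic loess. The count of higher genes there, 0, became 1 without low 3 and low 4. The cause was not tested. Same-numbered arrays deviated from their group means with correlations of -0.256 to 0.025 over genes, and differently numbered arrays with -0.119 to 0.257. The numbers were not taken as pairs, though so few arrays cannot exclude a pairing.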
